A study of Homo sapiens with 6 samples.

Results

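The death receptors are the members of the tumour necrosis factor (TNF) receptor family through which a ligand outside the cell can start apoptosis, and CFLAR encodes c-FLIP, the inhibitor that acts directly beneath them. A set of 10 genes was taken by name: the receptors FAS, TNFRSF10A, TNFRSF10B, TNFRSF10C, TNFRSF10D, TNFRSF1A, TNFRSF12A and TNFRSF21, the ligand TNFSF10 and CFLAR, out of 18132 genes with a probe set of their own on the array. The values are those of the 31 probe sets, of 49293, that the platform annotation gives to a listed gene alone, and all 31 are reported. Cells were of the U87 line, an established human glioblastoma line, and carried either overexpressed miR-151a (3 samples, numbered 1 to 3) or the overexpressed control microRNA miR-NC (3 samples). Biotin-labelled RNA from each sample was hybridised to its own 1-colour Affymetrix array; no drug, ligand or genotype beyond these is named in the labels. Whether the 3 samples of a group came from separate cultures is not said there, so every p-value rests on a spread that could be technical. The level of miR-151a itself, its arm and the length of expression are not analysed here.

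In this pathway a trimeric ligand draws receptors together, the death domains in their tails recruit the adaptor FADD, and FADD brings procaspase CASP8 into a complex where it activates itself. FAS answers to FAS ligand, TNFRSF10A (DR4) and TNFRSF10B (DR5) answer to TNFSF10, which is better known as TRAIL, and TNFRSF1A is the main receptor for TNF and recruits TRADD first. TNFRSF10C and TNFRSF10D bind TRAIL without a working death domain and are called decoy receptors, and c-FLIP takes the place of CASP8 on FADD. Glioblastoma cells have been studied at length for their response to TRAIL and to FAS ligand.

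Values are log2(intensity + 1) of the deposited probe set intensities, so a difference of 1 is a doubling. Changes are miR-151a minus miR-NC, tested with limma over all 49293 probe sets, and a probe set is said to have risen or fallen where its Benjamini-Hochberg adjusted p was under 0.05. The 6 arrays had medians from 57.1 to 58.6 and lower quartiles from 14.9 to 15.6 on the intensity scale. For the beta-actin control probe sets, the log2 ratio of 3 prime over 5 prime signal lay between 0.27 and 0.30 with miR-151a and between 0.37 and 0.43 with miR-NC, while for GAPDH the ranges overlapped (0.045 to 0.052 and 0.029 to 0.049); whether RNA was labelled from the 3 prime end is not settled by the labels, and the part of this shift in the values of the members was not tested. Markers of cell types were read from the brightest probe set of each gene. Of 9 markers of U87 and glial cells, 0 lay below the lower quartile on all arrays, their summed intensity ran from 28899 to 30363 with miR-151a and from 29006 to 30723 with miR-NC, and 1 fell, the intermediate filament gene NES, at -0.31; with probe sets averaged TNC, a matrix protein gene, also rose, at 0.17 (adjusted p = 0.016, 2 of 4 probe sets higher), and 1 of 10 CD44 probe sets fell. Of 9 immune markers, 4 (PTPRC, CD3D, MS4A1 and CD14) lay below the lower quartile on all 6 arrays, 0 rose or fell in limma on that probe set (2 at an unadjusted p under 0.05), and the sum, mostly that of CD68, ran from 1145 to 1223 and from 1117 to 1170. ITGAM, the myeloid integrin CD11b, did move in its other probe sets: 2 of 3 rose, by up to 1.47, the brightest was at 0.42 (adjusted p = 0.058), and their mean rose by 0.76 (adjusted p = 0.00094). The part of this in the values of the members was not tested. Of 6 epithelial markers, 0 rose or fell in limma (0 at an unadjusted p under 0.05), CDH1 lay below the lower quartile on all 6 arrays, and sums ran from 201 to 232 and from 198 to 227.

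Among the 31 probe sets of the 10 genes, 7 rose, 2 fell and 22 did not pass, so 29.0% passed where 14.1% of all probe sets did (6.81% higher and 7.27% lower). The members were chosen with earlier results of these data known. This share, and the counts by gene below, are therefore not independent evidence. The 7 that rose belong to TNFRSF10B (2), FAS (1), TNFRSF12A (1) and CFLAR (3), and the 2 that fell belong to the decoy TNFRSF10D and to TNFRSF21. TNFRSF10A, TNFRSF10C, TNFRSF1A and TNFSF10 had no probe set past the threshold, and 0 genes had probe sets past it in both directions. The largest of these changes was 1.39-fold. The median change over the 31 probe sets was 0.05, beside -0.0089 over all probe sets, and 15 of the 31 showed no overlap between the groups, beside 33.8% of all probe sets. The count of 2 that fell became 4 without miR-151a replicate 2, when the other two TNFRSF21 probe sets also passed.

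**Figure D1:**
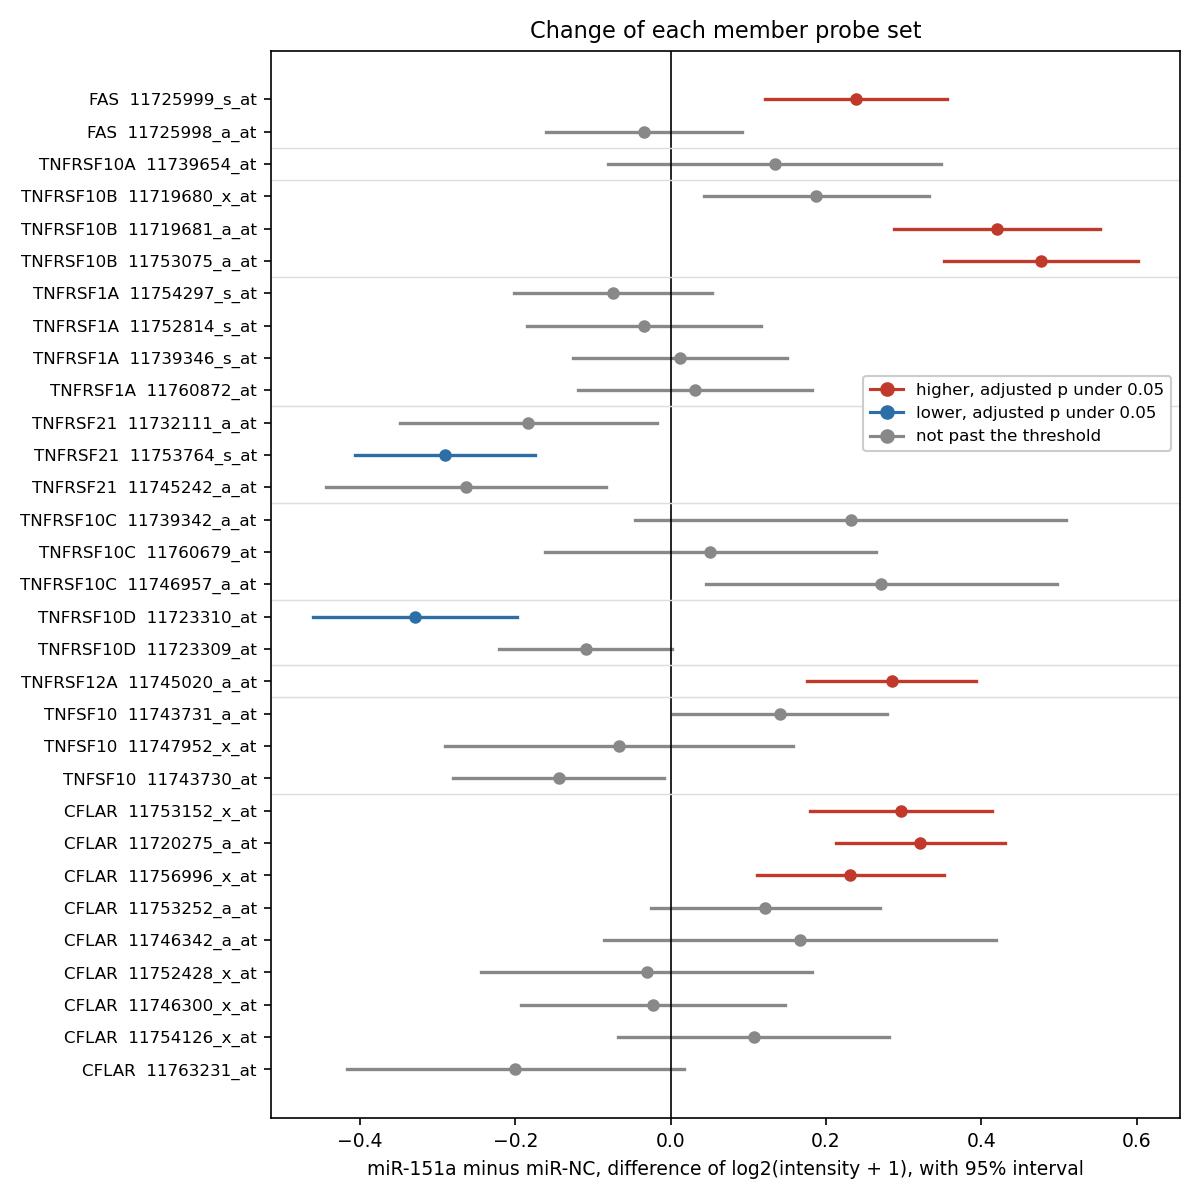
Change of each of the 31 probe sets, as the difference of log2(intensity + 1) between miR-151a and miR-NC (x axis; points are limma estimates, lines 95% intervals), grouped by gene. TNFRSF10B has the largest rises, at 0.42 and 0.48, TNFRSF10D and TNFRSF21 have the 2 probe sets that fell, and all 4 TNFRSF1A intervals span 0.

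When each gene was instead represented by its brightest probe set, 3 genes rose (FAS, TNFRSF12A and CFLAR) and 1 fell (TNFRSF10D) of 10, against 15.4% of all genes in either direction, 7.27% higher and 8.11% lower. With probe sets averaged for each gene, 4 genes passed, beside 17.7% of all genes by that measure (8.40% higher and 9.34% lower), but they were others in part: TNFRSF10B at 0.36 (adjusted p = 0.0011) and TNFRSF12A rose, and TNFRSF10D at -0.22 (adjusted p = 0.0081) and TNFRSF21 at -0.25 (adjusted p = 0.021) fell. By that measure FAS was at 0.10 (adjusted p = 0.13) and CFLAR at 0.11 (adjusted p = 0.14). On the brightest probe set, the FAS call was lost when miR-NC 2 (adjusted p = 0.051) or miR-NC 3 (0.056) was left out. Its adjusted p on that probe set ranged from 0.00029 to 0.056 over the settings. TNFRSF21 passed on its brightest probe set without miR-151a replicate 2 (0.030), which makes 2 lower genes. Results are given by probe set in what follows.

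RefSeq promoter windows (GRCh38.p14, from 250 bases before to 50 after an annotated start) were found for 5 of the 10 genes, and those of 3 genes with a probe set past the threshold are shown, since FAS and CFLAR rose and TNFRSF21 fell. Where a gene has several starts, the window printed is the one with a match to the NF-kB consensus on either strand, or the first. Capitals mark that match. The windows are CFLAR at chr2:201118466-201118765 (plus strand, 1 of 4), FAS at chr10:88991181-88991480 (plus strand, 1 of 3) and TNFRSF21 at chr6:47309856-47310155 (minus strand, its only one), each written 5′ to 3′ along the gene.
CFLAR: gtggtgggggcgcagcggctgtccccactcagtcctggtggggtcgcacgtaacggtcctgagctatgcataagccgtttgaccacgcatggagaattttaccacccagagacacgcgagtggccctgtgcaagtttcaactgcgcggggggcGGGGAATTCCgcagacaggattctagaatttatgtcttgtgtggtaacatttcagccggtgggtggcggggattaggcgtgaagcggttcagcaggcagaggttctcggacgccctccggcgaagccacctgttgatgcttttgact
FAS: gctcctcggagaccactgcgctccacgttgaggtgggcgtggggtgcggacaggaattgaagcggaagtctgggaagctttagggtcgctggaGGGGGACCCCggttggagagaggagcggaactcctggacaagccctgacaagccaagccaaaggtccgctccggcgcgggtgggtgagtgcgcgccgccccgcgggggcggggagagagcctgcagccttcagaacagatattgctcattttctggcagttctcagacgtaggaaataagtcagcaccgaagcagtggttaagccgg
TNFRSF21: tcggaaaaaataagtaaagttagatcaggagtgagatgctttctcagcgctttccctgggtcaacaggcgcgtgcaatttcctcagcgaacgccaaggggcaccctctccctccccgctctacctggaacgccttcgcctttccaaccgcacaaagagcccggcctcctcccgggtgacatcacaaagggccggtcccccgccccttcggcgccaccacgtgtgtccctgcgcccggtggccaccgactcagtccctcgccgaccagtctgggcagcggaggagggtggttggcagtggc

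The consensus was found in 1 of 4 CFLAR windows, 1 of 3 FAS windows and 0 of the 1 window each of TNFRSF21, TNFRSF1A and TNFSF10. It occurs in 11.3% of all 35116 windows of the same length. The AP-1 motif TGANTCA was in 1 of 4 CFLAR and 1 of 3 FAS windows, beside 7.71% of all windows. It was in 0 of the 1 window each of TNFRSF21, TNFRSF1A and TNFSF10. The GC box GGGCGG, which binds Sp1, was in 2 of 4 CFLAR, 3 of 3 FAS and the TNFRSF21 window, beside 45.0%. It was in 0 of the 1 window each of TNFRSF1A and TNFSF10. The FAS windows at chr10:88990548-88990847 and chr10:88990664-88990963 overlap and hold the same GC box, so the 3 FAS windows are not separate hits. All of these counts are matches of letters in either strand, not measured binding.

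TNFRSF10B, the TRAIL receptor DR5, had the largest rises of the set. In probe set 11753075_a_at the values were 7.84, 7.89 and 7.81 with miR-151a 1 to 3 and 7.34, 7.45 and 7.33 with miR-NC 1 to 3. All samples with miR-151a lay above all with miR-NC. On the intensity scale this was 229 ± 5.95 (SD, n = 3) against 165 ± 7.69 (SD, n = 3), a rise of 39.2% (log2 change 0.48, standard error 0.05, 95% interval 0.35 to 0.60, adjusted p = 0.0015). Probe set 11719681_a_at had 7.88, 7.97 and 7.93 against 7.57, 7.42 and 7.54. It rose by 33.8%, or 0.42 on the log2 scale (95% interval 0.29 to 0.55, adjusted p = 0.0032), again without overlap of the groups. Both passed in all 13 settings tried.

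The third TNFRSF10B probe set, 11719680_x_at, had intensities of 1680 ± 99.9 (SD, n = 3) and 1475 ± 68.0 (SD, n = 3), and it carries the suffix that Affymetrix gives to sets whose probes can also bind other transcripts. Its values of 10.71, 10.80 and 10.63 lay above those of 10.59, 10.53 and 10.46, but the change of 0.19 did not pass (95% interval 0.04 to 0.33, adjusted p = 0.090). It passed with a pseudocount of 32 (0.038) and in a robust fit with a variance trend (0.0019), in a range from 0.0019 to 0.24. Within each array, the log2 difference between this probe set and 11753075_a_at averaged 2.87 (SD 0.05) in the 3 miR-151a samples and 3.16 (SD 0.08) in the 3 miR-NC samples. The groups of differences did not overlap, and the exact two-sided permutation p was 0.1, the smallest that 3 against 3 samples allow. Whether binding of other transcripts has a part in this was not tested.

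FAS, the receptor for FAS ligand, gave unlike results in its 2 probe sets. Probe set 11725999_s_at read 8.50, 8.56 and 8.49 with miR-151a and 8.33, 8.28 and 8.23 with miR-NC, with no overlap. It rose by 18.0%, from 310 ± 10.2 (SD, n = 3) to 366 ± 9.04 (SD, n = 3), a log2 change of 0.24 (95% interval 0.12 to 0.36, adjusted p = 0.019). The call was lost when miR-151a 2 (adjusted p = 0.059), miR-NC 2 (0.062) or miR-NC 3 (0.070) was left out, in a range from 0.00048 to 0.070 over the settings. Probe set 11725998_a_at, with 8.07, 8.20 and 8.17 against 8.18, 8.14 and 8.22, overlapped and stood at -0.03 (95% interval -0.16 to 0.09, adjusted p = 0.75). The difference between the 2 probe sets within an array averaged 0.37 (SD 0.06) in the 3 miR-151a samples and 0.10 (SD 0.08) in the 3 miR-NC samples, again without overlap and with an exact permutation p of 0.1. Whether 11725999_s_at also binds other transcripts was not tested.

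TNFRSF10A, the TRAIL receptor DR4, had 1 probe set, at 4.49, 4.53 and 4.85 with miR-151a and 4.46, 4.49 and 4.51 with miR-NC. The groups overlapped, the sample miR-151a 3 stood above the rest, and the change of 0.13 had a 95% interval from -0.08 to 0.35 (adjusted p = 0.40). This interval includes the size of the smallest rise that passed among the members, 0.23.

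TNFRSF1A, the receptor for TNF, showed changes close to 0 in all of its 4 probe sets, from -0.07 to 0.03, with adjusted p from 0.44 to 0.92. In the brightest, 11754297_s_at, the intensities were 496, 467 and 493 against 487, 533 and 513, overlapping. Its 95% interval ran from -0.20 to 0.05, and over the 4 probe sets the intervals lay within -0.20 and 0.18. A rise of the size seen for TNFRSF10B, 0.42 or more, is outside each of them.

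TNFRSF21, or DR6, which carries a death domain and has been studied mostly in neurons and lymphocytes, fell in 1 of its 3 probe sets. This was 11753764_s_at, with 7.50, 7.53 and 7.49 with miR-151a and 7.79, 7.75 and 7.85 with miR-NC. It fell by 18.2% (log2 change -0.29, 95% interval -0.41 to -0.17, adjusted p = 0.0084), from 222 ± 8.06 (SD, n = 3) to 181 ± 2.93 (SD, n = 3). Whether 11753764_s_at also binds other transcripts was not tested. The brightest probe set, 11732111_a_at, was at 8.61, 8.88 and 8.71 against 8.91, 8.92 and 8.92. Its change was -0.18 (adjusted p = 0.14), and the sample miR-151a 2 lay just under the miR-NC values. Probe set 11745242_a_at, at 6.49, 6.78 and 6.62 against 6.92, 6.83 and 6.93, had a change of -0.26 (adjusted p = 0.062). In all 3 probe sets the miR-151a values lay below the miR-NC values, and without miR-151a replicate 2 these last probe sets passed as well (adjusted p = 0.039 and 0.026). With all 6 samples, 11745242_a_at also passed under quantile normalization (0.049), a pseudocount of 32 (0.038), the removal of low values (0.043) and the robust fit (0.011), and 11732111_a_at in the robust fit (0.015).

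Of the decoy receptors, TNFRSF10D had 1 of 2 probe sets that fell and TNFRSF10C had 0 of 3 past the threshold; the difference between the genes was not tested. TNFRSF10D, whose death domain is truncated, fell in its brighter probe set 11723310_at, which had 9.24, 9.36 and 9.27 with miR-151a and 9.69, 9.59 and 9.58 with miR-NC. The groups did not overlap, and the intensity went from 786 ± 33.2 (SD, n = 3) to 626 ± 27.7 (SD, n = 3), a decrease by 20.4% (log2 change -0.33, standard error 0.06, 95% interval -0.46 to -0.20, adjusted p = 0.0084). Probe set 11723309_at had 7.12, 7.10 and 7.16 against 7.26, 7.25 and 7.20. These groups did not overlap either, but the change of -0.11 did not pass (adjusted p = 0.19). The log2 difference between these probe sets averaged 2.16 (SD 0.09) in the 3 miR-151a samples and 2.38 (SD 0.04) in the 3 miR-NC samples, with an exact permutation p of 0.1.

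TNFRSF10C, a decoy held in the membrane by a lipid anchor, had no probe set past the threshold. Its 3 probe sets were at 0.23, 0.05 and 0.27, with adjusted p from 0.11 to 0.78, and the groups overlapped in each. The brightest, 11739342_a_at, read 5.58, 5.80 and 5.53 with miR-151a and 5.61, 5.47 and 5.15 with miR-NC, where miR-NC 3 was the lowest. Its 95% interval from -0.05 to 0.51 includes both 0 and the 0.48 of TNFRSF10B. Probe set 11746957_a_at lay below the lower quartile on all 6 arrays.

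TNFRSF12A, or Fn14, the receptor for TWEAK, has no death domain and signals through TRAF proteins. Its only probe set, 11745020_a_at, had 10.30, 10.34 and 10.37 with miR-151a and 10.06, 10.04 and 10.06 with miR-NC. The spread within each group was small beside the gap between them. The intensity rose by 21.8%, from 1062 ± 9.55 (SD, n = 3) to 1294 ± 31.4 (SD, n = 3), a log2 change of 0.28 (standard error 0.05, 95% interval 0.18 to 0.39, adjusted p = 0.0071), and it passed in all 13 settings.

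**Figure D2:**
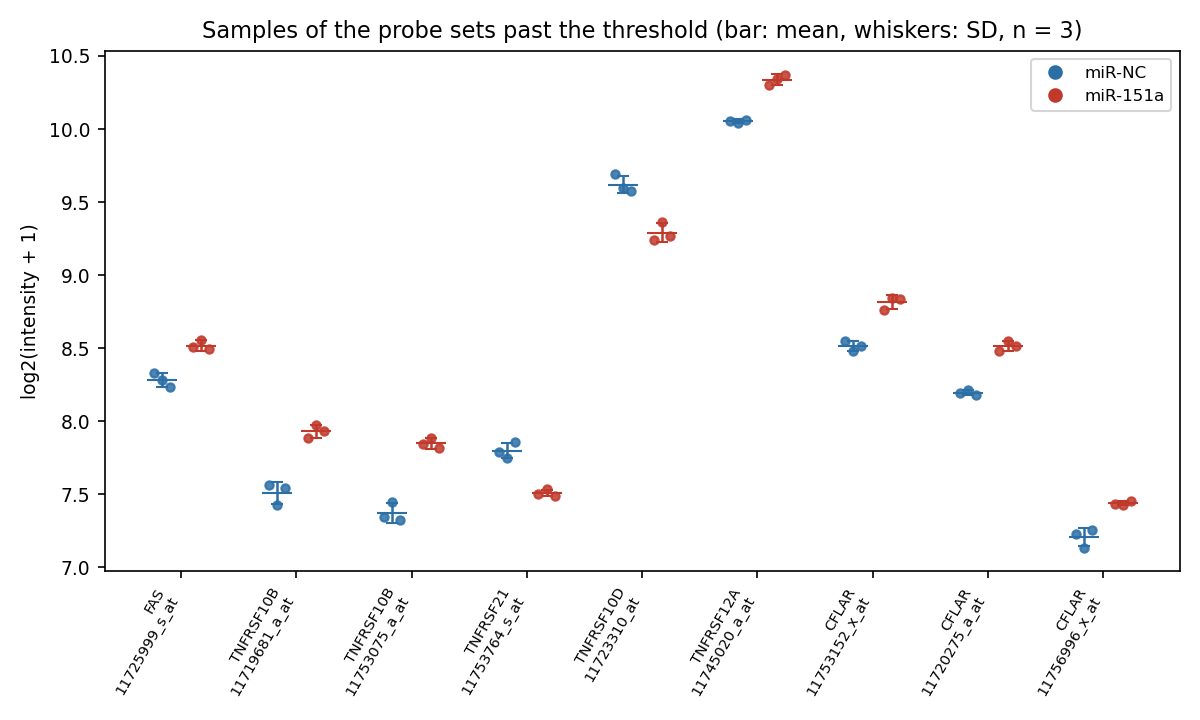
Values of each sample, as log2(intensity + 1) on the y axis, for the 9 probe sets past the threshold; points are samples, bars means and whiskers SD over 3 samples of miR-NC (blue) and miR-151a (red). The groups do not overlap in any of the 9; TNFRSF21 and TNFRSF10D are lower with miR-151a and the other 7 probe sets are higher.

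TNFSF10, the ligand TRAIL, was dim. Its 3 probe sets lay below the lower quartile on all 6 arrays, with mean intensities from 6.97 to 12.1, and their changes were 0.14, -0.07 and -0.14 (adjusted p = 0.17, 0.72 and 0.15). The brightest, 11743731_a_at, had 3.70, 3.80 and 3.63 with miR-151a and 3.54, 3.54 and 3.62 with miR-NC, and 11743730_at had 3.03, 3.00 and 2.96 against 3.04, 3.15 and 3.22. In the first the miR-151a samples lay above and in the second below the miR-NC samples, so no direction is given for this gene.

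CFLAR, the c-FLIP gene, had 9 probe sets, of which 3 rose, 0 fell and 6 did not pass. The 3 that rose were the 3 brightest. Among them, 11753152_x_at and 11756996_x_at carry the suffix of sets whose probes can also bind other transcripts. The part of such binding in their rises was not tested. Probe set 11720275_a_at had 8.48, 8.55 and 8.51 with miR-151a and 8.20, 8.21 and 8.18 with miR-NC. It rose by 25.0%, from 292 ± 3.48 (SD, n = 3) to 365 ± 8.39 (SD, n = 3), a log2 change of 0.32 (standard error 0.05, 95% interval 0.21 to 0.43, adjusted p = 0.0043). In 11753152_x_at, the brightest, the values of 8.76, 8.85 and 8.83 stood above those of 8.55, 8.48 and 8.52. This was a rise of 22.8% (adjusted p = 0.0080); mean intensities were 365 ± 8.93 (SD, n = 3) and, with miR-151a, 449 ± 14.7 (SD, n = 3).

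Probe set 11756996_x_at read 7.43, 7.43 and 7.45 against 7.23, 7.13 and 7.25 and rose by 17.4%, or 0.23 on the log2 scale (adjusted p = 0.023). That call was lost without miR-151a replicate 1, 2 or 3 (adjusted p = 0.057, 0.057 and 0.072) or miR-NC replicate 1 or 2 (0.059 and 0.084), in a range from 0.0043 to 0.084, while the calls of the other two held in all 13 settings. The 6 remaining probe sets, with group means from 8.04 to 94.5 in intensity, had changes from -0.20 to 0.17, adjusted p from 0.21 to 0.88, and overlapping groups. Measured against 11753152_x_at within each array, 11763231_at, 11752428_x_at, 11746300_x_at and 11753252_a_at had changes lower by 0.50, 0.33, 0.32 and 0.17, with no overlap between groups (exact permutation p of 0.1 each). For 11754126_x_at and 11746342_a_at, at 0.19 and 0.13, those differences overlapped between groups. Probe set 11763231_at lay below the lower quartile on all 6 arrays. CFLAR is spliced into long and short c-FLIP forms, and which form each probe set reads is not settled by the annotation used here.

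**Figure D3:**
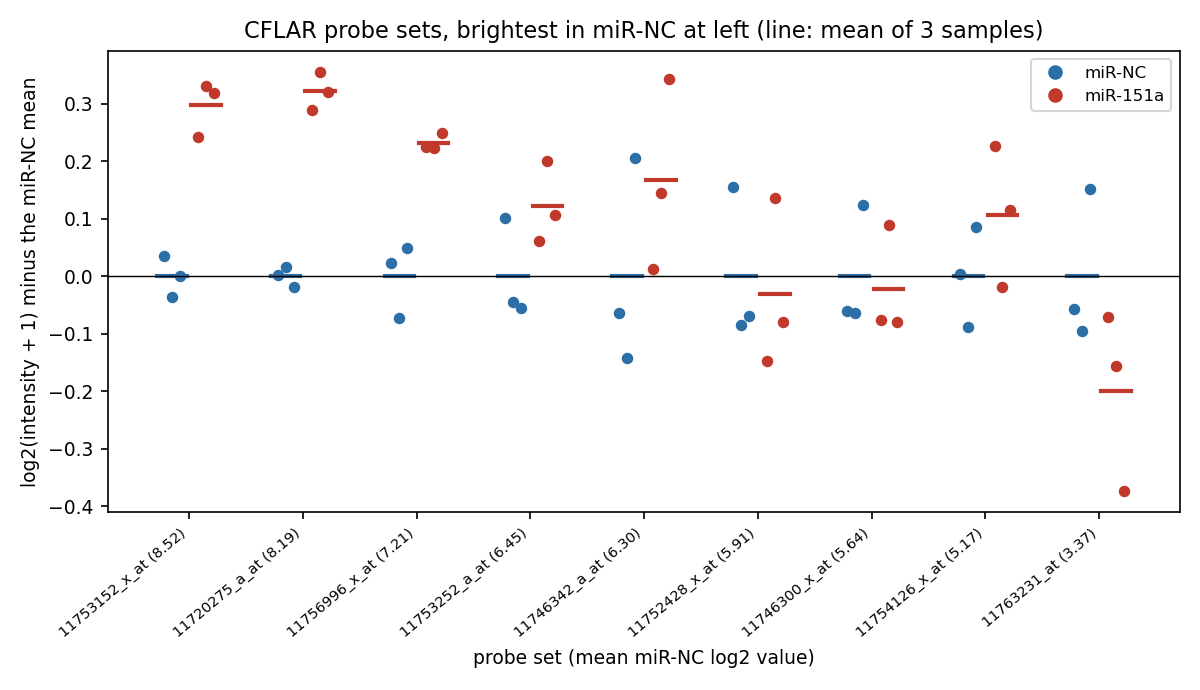
CFLAR probe sets from the brightest in miR-NC (left) to the dimmest, with each sample's log2(intensity + 1) minus the miR-NC mean of that probe set on the y axis and that mean in brackets; points are samples and lines means of 3. The first 3 probe sets are higher in every miR-151a sample, at means of 0.30, 0.32 and 0.23, and in the other 6 the groups overlap.

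Over all genes with several probe sets, 21 pairs of the brightest and another probe set were compared in this way. In 10 of them the groups of differences did not overlap, beside 23.0% of all 26856 such pairs on the array, and 2 of the 10 hold a probe set below the lower quartile on all 6 arrays (TNFSF10 11743730_at and CFLAR 11763231_at). Adjusted over the 21, the exact permutation p ran from 0.21 to 0.90; since 3 against 3 samples cannot give less than 0.1, no pair could have passed 0.05, and these values neither show nor exclude that probe sets of a gene differ. In RNA from whole cultures, a change in the share of cells that express a gene and a change in RNA per cell cannot be told apart for any of these values.

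Genes around the members were taken from 6 lists with 101 entries, of which 91 were measured, and each gene was read from its brightest probe set. In all 16 rose and 5 fell, where 7.27% of all genes rose and 8.11% fell. The median change was 0.07, beside -0.0091 over all genes. Of the 16, 9 came from the list of transcription regulators, which was chosen with large rises of several of its genes already known. The pooled count and median are therefore not independent evidence. With probe sets averaged, 21 of the 91 rose and 7 fell, where 8.40% of all genes rose and 9.34% fell by that measure. The 5 that fell became 3 when any of miR-151a 1, miR-151a 2, miR-NC 1 and miR-NC 2 was left out.

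Of 15 other ligands of the TNF family, 2 rose and 1 fell. TNF, the ligand of TNFRSF1A, read 6.49, 7.01 and 6.82 with miR-151a and 5.51, 5.63 and 5.62 with miR-NC, a 2.27-fold rise (adjusted p = 0.00080). Its spread with miR-151a was the wider one, and the groups did not overlap. CD70, the ligand of CD27, rose by 25.6% in its brighter probe set (adjusted p = 0.0034), but the other was at -0.32 and the mean of the pair at 0.0041 (adjusted p = 0.98), so its direction depends on the probe set. TNFSF13B, the B-cell survival factor BAFF, fell in the brighter of its 2 probe sets, at -0.59 (adjusted p = 0.00025), and the other was at -0.22.

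Of 20 other receptors of the family, 2 rose and 1 fell. TNFRSF9, the costimulatory receptor 4-1BB, read 8.19, 8.34 and 8.26 against 7.12, 7.11 and 7.22, a 2.16-fold rise (adjusted p = 2.6e-05). TNFRSF14, the receptor for LIGHT, rose by 19.3% (adjusted p = 0.012, and 0.0501 without miR-NC replicate 3, in a range from 0.0014 to 0.0501), and 5 of its 7 probe sets rose. TNFRSF11B, or osteoprotegerin, a secreted decoy that binds TRAIL as well as RANK ligand, fell by 26.5% (adjusted p = 0.0062), with 4.94, 4.97 and 5.20 against 5.46, 5.52 and 5.47. When probe sets were averaged, 3 of the 20 rose and 2 fell, beside 8.40% and 9.34% of all genes by that measure. Those added were TNFRSF8 at 0.18 (adjusted p = 0.039) and TNFRSF19 at -0.29 (adjusted p = 0.0093, 1 of 3 probe sets lower).

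Of 13 adaptors and kinases of the receptor complex, 0 rose and 0 fell in limma (3 at an unadjusted p under 0.05), with TRAF5 having the smallest p at -0.19 (adjusted p = 0.12). FADD, the adaptor shared by the death receptors, stood at -0.0090 (95% interval -0.11 to 0.088). With probe sets averaged, 1 of the 13 rose, DEDD, a death effector domain protein, at 0.18 (adjusted p = 0.016). Of 14 caspases and downstream genes, 0 rose and 2 fell. CASP8, the initiator that FADD recruits, was at 7.16, 7.20 and 7.21 against 7.45, 7.43 and 7.34, a log2 change of -0.22 (adjusted p = 0.023), in 1 of 8 probe sets; the others ran up to 0.16 and the mean over all 8 was at -0.03 (adjusted p = 0.64). CASP6, an effector caspase, fell by 12.4% (adjusted p = 0.034). The CASP8 call was lost without miR-151a replicate 1, 2 or 3 (adjusted p = 0.066, 0.058 and 0.056) or miR-NC replicate 1 or 2 (0.081 and 0.084), and that of CASP6 without each of the 6 samples in turn (0.060 to 0.12), out of ranges from 0.0056 to 0.64 and from 0.0028 to 0.12.

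Of 16 further genes listed as inhibitors or regulators of death receptor signalling, 3 rose and 1 fell. The list does not separate genes by the direction in which they act on cell death. TNFAIP3, which edits ubiquitin on TNF receptor complexes, read 10.54, 10.59 and 10.45 against 8.93, 8.79 and 8.75, a 3.26-fold rise in the brighter of 2 probe sets that both rose. CYLD, a deubiquitinase of the same complexes, rose 1.91-fold in its brightest probe set (adjusted p = 3.2e-05), while 1 of its 4 probe sets fell, the lowest was at -0.18, and their mean was at 0.20 (adjusted p = 0.0088). TNFAIP8 rose by 22.8% (adjusted p = 0.020); the call was lost without miR-151a replicate 1 or 2 (adjusted p = 0.065 and 0.059) or miR-NC replicate 2 or 3 (0.052 and 0.071), in a range from 0.00027 to 0.071. BIRC5, or survivin, which is also a mitotic gene, fell by 17.8% (adjusted p = 0.0062), with 8 of 12 probe sets lower. With probe sets averaged, 6 of the 16 rose and 2 fell, beside 8.40% and 9.34% of all genes by that measure. Those added include XIAP, a direct caspase inhibitor, at 0.41 (adjusted p = 0.00030, 2 of 5 probe sets higher, up to 0.82, and the brightest at 0.20), and PEA15, which binds FADD and CASP8, at 0.39 (adjusted p = 0.00070, 1 of 2 higher, at 0.67).

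Of 13 regulators of transcription that are known to act on these genes or beside them, 9 rose and 0 fell, with a median of 0.70. With probe sets averaged, 9 rose and 1 fell, YY1, at -0.13 (adjusted p = 0.049, 2 of 7 probe sets lower). FOXO3 is among the 9 on the brightest probe set, at 0.20 (adjusted p = 0.047 over genes, in a range from 0.0027 to 0.14). In the fit over all probe sets, 0 of its 3 probe sets passed. DDIT3 (CHOP), which is known to bind the TNFRSF10B promoter under endoplasmic reticulum stress, read 9.45, 9.53 and 9.60 against 8.41, 8.41 and 8.45, a 2.15-fold rise (adjusted p = 1.8e-05). ATF3, TRIB3 and IRF1, which respond to stress and to interferon, rose 4.34-, 2.39- and 2.27-fold, and all of their probe sets rose (7 of 7, 2 of 2 and 4 of 4). The rest of the 9 were ATF4 at 0.23 (adjusted p = 0.014) and the NF-kB subunit genes NFKB1, NFKB2 and RELB. These stood at 0.70, 0.85 and 1.02 (adjusted p = 9.6e-05, 0.00021 and 0.00013). RELA, another subunit gene, did not pass, at 0.07 (adjusted p = 0.43). This list was chosen with large rises of several of its genes already known from these samples, so its count is not independent evidence.

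**Figure D4:**
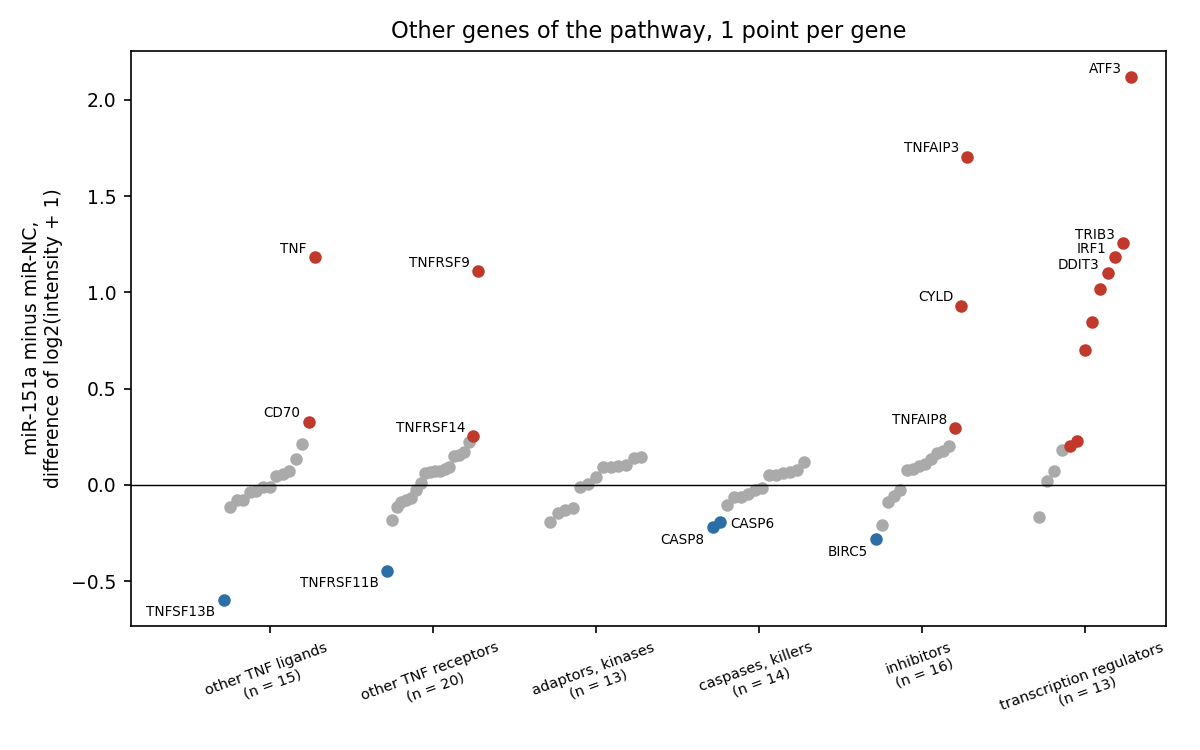
Changes of the 91 measured genes of the 6 lists around the death receptors (y axis: difference of log2(intensity + 1) between miR-151a and miR-NC; 1 point per gene by its brightest probe set; red and blue points rose or fell past the threshold, grey ones did not pass). Changes above 1 occur in TNF, TNFRSF9, TNFAIP3 and the transcription regulators, while the 13 adaptors and kinases are all grey.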

How the data were processed

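RNA from 6 samples was profiled, and groups and replicate numbers were read from the sample titles. The authors deposited linear probe set intensity values; MAS5 is named in the submitters' processing notes with no version or role, and the sources used here do not say how background, summarization and scaling were handled. Array quantiles are close, so a change common to most genes cannot be read from them. After 102 control probe sets were left out, 49293 were tested, of which 44988 name 1 gene, 1832 several and 2473 none. Gene names come from the platform annotation, brought up to date by Entrez identifier through RefSeq (GRCh38.p14). The gene fit took, for each of 18132 genes, the brightest probe set by mean log2 value. Log2(intensity + 1) was fitted by group alone with lmFit and eBayes (limma 3.58.1, R 4.3.3), and p-values were adjusted by Benjamini-Hochberg across every probe set, or every gene, at a threshold of 0.05; intervals are 95% intervals of the fit. The scale understates changes of dim probe sets, and the number of arrays limits the precision. Probe set differences within an array were compared by exact permutation over samples (scipy 1.17.1). The fit was tested on simulated data. Figures used matplotlib 3.10.9.

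The members and lists were chosen with earlier results of these data known. Named genes are all 10 members with every probe set, and genes of each list. From a list came the genes past the threshold (at most 4 per direction by smallest p) or the 1 with the smallest p. FADD, ITGAM, TNC, CD44, DEDD, XIAP, PEA15, SHARPIN, FAIM, TNFRSF8, TNFRSF19, ATF4, NFKB1, NFKB2, RELB, RELA, YY1 and FOXO3 were added after their values were seen. The alternatives tried were a pseudocount of 32, quantile normalization, median centring, leaving out features under the 0.25 quantile of mean value, a robust fit with a variance trend, the replicate number as a block, the mean over probe sets, and leaving out each sample.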

Additional observations from a re-analysis of the deposited data

How the results depend on the processing

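Of the 9 member probe sets past the threshold, all 9 kept their call under a pseudocount of 32, quantile normalization, median centring, the removal of low values and a robust fit with a variance trend, and 7 to 8 kept it without 1 sample; all 9 kept their direction in each of these fits. The robust fit gave 4 lower member probe sets, 2 lower member genes and 8 lower pathway genes, and the mean over probe sets gave 2 lower member genes, with 21 pathway genes higher and 7 lower. On its brightest probe set the TNFRSF10B gene passed under quantile normalization (adjusted p = 0.044), a pseudocount of 32 (0.030), the removal of low values and the robust fit (0.0012). Without 1 sample, the lower member probe sets numbered 2 to 4, the lower member genes 1 to 2 and the lower pathway genes 3 to 4. Over all probe sets, same-numbered samples did not deviate together (correlations of -0.076, -0.12 and 0.066). The labels state no pairing, and correlations around means of 3 samples cannot settle whether the numbers pair the samples. With the replicate block 7 of the 9 calls were kept, and 3 pathway genes were lower. FAS 11725999_s_at and CFLAR 11756996_x_at were lost in that fit (limma adjusted p = 0.053 and 0.057).

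Direction reversed only for probe sets or genes that did not pass in either fit. TNFRSF1A 11739346_s_at was at -0.00048 with median centring, and TNFSF10 at -0.023 with the mean over probe sets. Without 1 sample, FAS 11725998_a_at ran from -0.0599 to 0.0027, TNFRSF1A 11752814_s_at from -0.0837 to 0.0058, 11739346_s_at from -0.0112 to 0.0524 and 11760872_at from -0.0305 to 0.0822, TNFRSF10C 11760679_at from -0.0348 to 0.138, TNFSF10 11747952_x_at from -0.181 to 0.0249, and CFLAR 11752428_x_at from -0.114 to 0.0468 and 11746300_x_at from -0.0783 to 0.0398. The cause of these shifts was not tested. With 3 arrays a group, changes of about 0.2 lie near the limit of what passed.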

Other observations

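Besides the 3 TNFRSF10C probe sets of the report, 2 probe sets name TNFRSF10C together with LOC254896 and entered no count of members. On the log2(intensity + 1) scale, 11745687_a_at had 5.80, 5.93 and 5.75 with miR-151a and 5.69, 5.90 and 5.91 with miR-NC, and 11760084_x_at had 6.42, 6.57 and 6.58 against 6.40, 6.51 and 6.63. Their changes were -0.0018 and 0.0069 (limma adjusted p = 0.99 and 0.97), and the groups overlapped in both.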
